A study of Homo sapiens with 4 samples.

Results

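ATF4 and 9 genes of the integrated stress response, DDIT3, DDIT4, ASNS, TRIB3, CHAC1, SESN2, PSAT1, PHGDH and CEBPB, were followed in A549 cells with and without knockdown of YTHDF2. The 10 genes were taken by symbol from a deposited table of 28283 genes, and each symbol matched 1 row. A549 is a human lung adenocarcinoma line. Cells of the shNC group carried the pLKO.1 control vector, and cells of the shY2-2 group carried a lentiviral shRNA against YTHDF2, a cytoplasmic reader protein that binds m6A (N6-methyladenosine) in mRNA and is known for shortening the life of the mRNAs it binds. Both groups were stable, puromycin-selected cells, and only 1 of the shRNAs is represented here. Fragmented poly(A) RNA of each group was sequenced as it was (the input library) and after pull-down with an m6A antibody (the IP library), 1 library of each kind, so the 4 libraries hold no replicates. No test between groups was therefore possible, and every difference given here is a difference between 2 libraries.

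In the integrated stress response, kinases that sense unfolded proteins, amino acid shortage, double-stranded RNA or haem shortage phosphorylate eIF2α, the alpha subunit of the initiation factor eIF2. Translation of most mRNAs then slows, while short upstream reading frames in the ATF4 mRNA let its main reading frame be translated more, and the ATF4 protein switches on genes for amino acid synthesis, amino acid uptake and tRNA charging as well as feedback and death genes. The libraries measure RNA only, and neither eIF2α phosphorylation nor ATF4 protein was analysed here. m6A lies mostly in GGAC and related letters, often near stop codons and in 3′ UTRs.

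Levels are FPKM from the input libraries, a fragment measure scaled for exon length and library size, so that genes can be compared with each other. Differences between the libraries are log2((FPKM shY2-2 + 1)/(FPKM shNC + 1)). The added 1 makes the difference of a weakly expressed gene look smaller than it is. Genes that reached 1 FPKM in either input library were kept, 12268 in number, and all 10 stress response genes were among them. The targeted gene YTHDF2 stood at 3.56 FPKM in shNC and 1.02 in shY2-2, a log2 ratio of −1.18, while the related readers YTHDF1 (27.7 and 25.4 FPKM) and YTHDF3 (2.72 and 3.80 FPKM) had log2 ratios of −0.12 and 0.36. All 8 epithelial and A549 markers were present, with keratin 8 (KRT8) at 523 and 322 FPKM, and 4 of the 5 measured markers of other cell types (PTPRC, CD3E, PECAM1 and PDGFRB) stayed under 1 FPKM in both libraries. The fibroblast collagen COL1A1 was the exception, at 0.834 and 1.64 FPKM.

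The mRNA of ATF4 itself was not lower in the knockdown library, but most of the genes it is known to switch on were. Of the 10 genes, 3 were higher in shY2-2 (ATF4, CEBPB and, at 115 and 116 FPKM, DDIT4) and 7 were lower (DDIT3, TRIB3, PHGDH, PSAT1, ASNS, CHAC1 and SESN2), with a median log2 ratio of −0.53. Over all genes kept, 49.7% were lower and the median was 0.00, with the 5th and 95th percentiles at −0.76 and 0.60. Past a log2 ratio of 1 in size, which is the fold limit of the study without the test the study added to it and on a ratio with a pseudocount, 1 gene was lower (PSAT1) and 0 were higher, where 2.14% of all genes kept were below −1 and 0.986% above 1. The shares of all genes depend on the pseudocount: with 0.1 FPKM added in place of 1, 602 of them were below −1 and 315 above 1, where 262 and 121 were so before. At a limit of 1.5-fold on the same scale, 3 were lower (PSAT1, PHGDH and DDIT3) and 0 higher, against 8.92% and 5.38% of all genes kept.

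**Figure D1:**
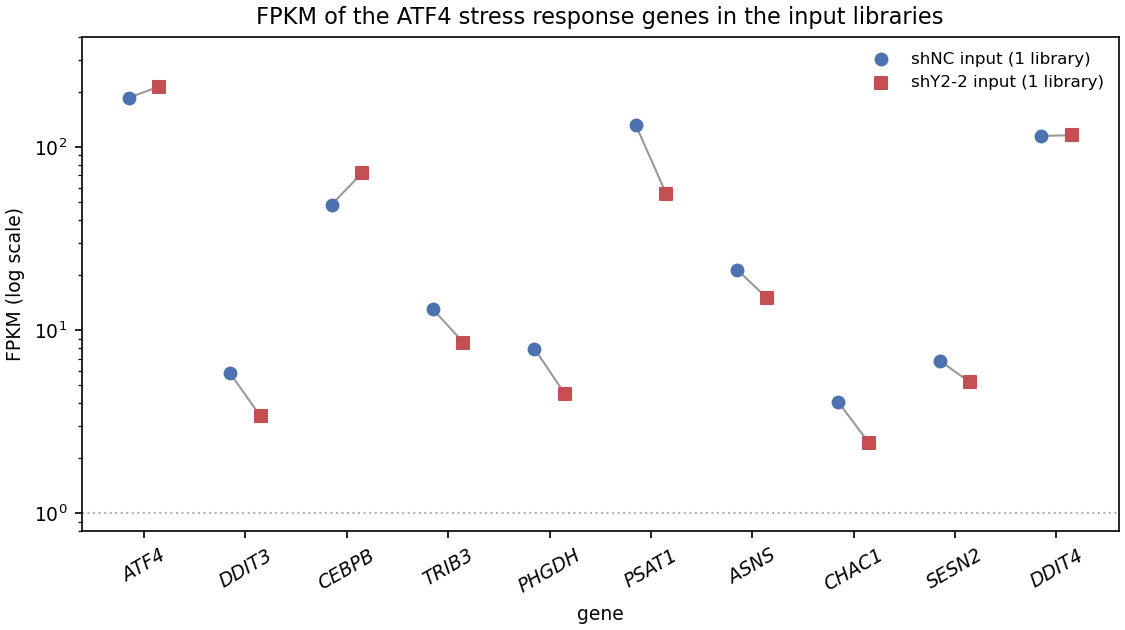
FPKM (log axis) of the 10 genes in the shNC input library (circles) and the shY2-2 input library (squares), 1 library each, joined by a line per gene; the dotted line marks 1 FPKM. ATF4 and CEBPB lie higher in shY2-2, DDIT4 is level at 115 and 116 FPKM, and the other 7 lie lower, with PSAT1 going from 132 to 55.7 FPKM.

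Among the transcription factors, ATF4 (ENSG00000128272, chromosome 22, 39519695 to 39522685, + strand, GRCh38) was the most abundant of the 10, at 186 FPKM in shNC and 214 FPKM in shY2-2. Its log2 ratio of 0.20 lay at percentile 71.1 of the ratios of all genes kept. The listed ATF4 pseudogenes (ATF4P1 to ATF4P4) were all under 1 FPKM, the highest being ATF4P3 at 0.239 and 0.410 FPKM. CEBPB (ENSG00000172216, chromosome 20, 50190734 to 50192689, + strand), a bZIP factor that pairs with ATF4 on its response elements, stood at 48.5 and 72.1 FPKM, a log2 ratio of 0.56 at percentile 94.0. An antisense gene that overlaps it by 765 bases, CEBPB-AS1, was also higher, at 0.311 and 1.53 FPKM. The libraries were made with a strand-specific method, but whether strand was used in the counting is not given in the sources used here, so part of a gene's FPKM may come from reads of its antisense partner and the reverse.

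DDIT3 (ENSG00000175197, chromosome 12, 57516588 to 57520517, − strand) encodes CHOP, the death-promoting bZIP factor downstream of ATF4. It stood at 5.81 FPKM in shNC and 3.38 FPKM in shY2-2, a log2 ratio of −0.64 at percentile 7.56. Its 3′ end overlaps MARS, the methionyl-tRNA synthetase gene on the opposite strand, by 982 bases, and MARS was more abundant and also lower, at 25.3 and 18.9 FPKM. TRIB3 (ENSG00000101255, chromosome 20, 362835 to 397559, + strand), a pseudokinase induced by ATF4 and CHOP that restrains ATF4 activity, was lower by a similar amount, 13.0 and 8.56 FPKM with a log2 ratio of −0.55.

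The biosynthetic genes held the member with the greatest difference. PSAT1 (ENSG00000135069, chromosome 9, 78297143 to 78330093, + strand), the transaminase in the middle of serine synthesis, was at 132 FPKM in shNC and 55.7 FPKM in shY2-2. This is 2.37-fold lower, a log2 ratio of −1.23 at percentile 0.897 of all genes kept. Among the 544 genes with mean FPKM from 0.5 to 2 times its own, 13 had a log2 ratio below −1. PHGDH (ENSG00000092621, chromosome 1, 119648411 to 119744226, + strand), which starts the same pathway, stood at 7.94 and 4.50 FPKM, a log2 ratio of −0.70 at percentile 6.05. The last enzyme of serine synthesis, PSPH, was not lower in shY2-2, with 8.83 and 9.15 FPKM. ASNS (ENSG00000070669, chromosome 7, 97852118 to 97872542, − strand), which makes asparagine, was at 21.4 and 14.9 FPKM, a log2 ratio of −0.50. A longer gene of the same strand that runs through the whole of ASNS, AC079781.5, was lower too, at 2.55 and 0.854 FPKM with a log2 ratio of −0.94, and shared reads could have been split between these overlapping genes.

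The remaining genes act in feedback and in redox and growth control. CHAC1 (ENSG00000128965, chromosome 15, 40952962 to 40956519, + strand), which breaks down glutathione, was the least abundant, at 4.04 and 2.43 FPKM with a log2 ratio of −0.56. SESN2 (ENSG00000130766, chromosome 1, 28259527 to 28282491, + strand), a leucine sensor that holds back mTORC1, stood at 6.81 and 5.19 FPKM with a log2 ratio of −0.33. DDIT4 (ENSG00000168209, chromosome 10, 72273920 to 72276036, + strand), which also holds back mTORC1 and answers hypoxia and glucocorticoids as well as ATF4, was at nearly the same level in both libraries, with a log2 ratio of 0.00. The differences of SESN2, CHAC1, TRIB3 and ASNS were all within the 5th to 95th percentile of all genes kept, and so were those of DDIT3 and PHGDH. Of the 10 genes, only PSAT1 lay outside that range.

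Epithelial marker genes moved the same way as most of the stress response genes. Of the 8 markers of A549 cells and lung adenocarcinoma epithelium, 7 were lower in shY2-2, with a median log2 ratio of −0.58, and their summed FPKM was 4973 in shNC and 3969.6 in shY2-2. Most of that sum came from ALDH1A1, at 2157 and 1238 FPKM, and AKR1B10, at 1801 and 2044 FPKM and the only marker of the 8 that was higher. None of the 8 markers was at 0. The 5 measured markers of other cell types summed to 1.12 and 1.72 FPKM. Only COL1A1 among them was higher in shY2-2, the other 4 were lower, and CD3E was at 0 there. The part of such differences in the levels above was not tested. In bulk RNA, fewer cells of a kind and less RNA of a gene per cell cannot be told apart.

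The wider pathway was read from 9 lists, in which 78 of 81 matched genes were kept. Of these, 23 were higher and 55 lower in shY2-2, with a median log2 ratio of −0.19, and 2 were below −1 while 0 were above 1. Over all genes kept, 49.7% were lower, 2.14% were below −1 and 0.986% were above 1. Upstream of ATF4, all 4 eIF2α kinases were lower, from EIF2AK3 (PERK, the sensor of unfolded protein), at 5.09 and 2.99 FPKM with a log2 ratio of −0.61, to EIF2AK4 (GCN2, the amino acid sensor) at −0.02. The 8 subunits of eIF2 and of its exchange factor eIF2B were split, with 4 higher and 4 lower and a median of 0.02, from EIF2B1 at −0.32 to EIF2S1 (eIF2α itself) at 0.36. The phosphatase side had 3 of 5 genes higher, with a median of 0.28. PPP1R15A (GADD34), the stress-induced subunit that brings the phosphatase to eIF2α and so ends the response, stood at 16.4 and 26.3 FPKM, a log2 ratio of 0.65 at percentile 96.1, while the catalytic subunit PPP1CB had the lowest ratio of this list, −0.22.

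**Figure D2:**
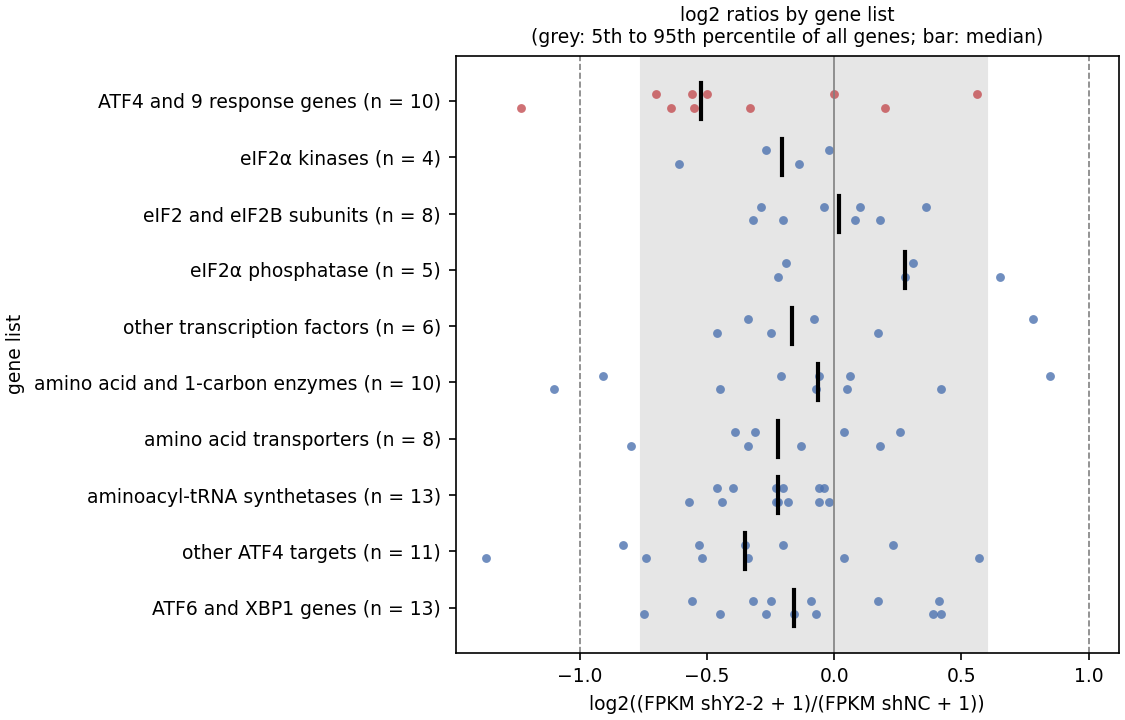
log2 ratio of shY2-2 over shNC (x axis) for ATF4 and the 9 response genes (red) and for each gene of 9 pathway lists (blue); the black bar is the list's median, the grey band runs from −0.76 to 0.60, the 5th and 95th percentiles of the 12268 genes kept, and dashed lines mark −1 and 1. The 10 genes have a median of −0.53, all 13 genes of the tRNA charging list lie below 0, and 3 genes in all, PSAT1, MAP1LC3B and ALDH1L2, lie below −1.

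Among other transcription factors of the response, 2 of 6 kept were higher and 4 lower, with a median of −0.17. ATF5, whose mRNA is translated under stress in the same way as that of ATF4, was the highest, at 8.31 and 15.0 FPKM with a log2 ratio of 0.78, and JDP2 the lowest at −0.46. The 13 genes of tRNA charging and export, which include aminoacyl-tRNA synthetases and the export receptor XPOT, were all lower in shY2-2, by small amounts. They had a median of −0.22, from IARS, the isoleucyl-tRNA synthetase, at 50.9 and 33.9 FPKM with −0.57, to YARS, the tyrosyl-tRNA synthetase, at −0.02. None of the 13 was past a log2 ratio of 1 in size.

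Amino acid and one-carbon enzymes other than the 3 above were divided, with 4 higher and 6 lower of 10 and a median of −0.06. The lowest were the mitochondrial folate enzymes ALDH1L2, at 2.50 and 0.635 FPKM with a log2 ratio of −1.10, and MTHFD2, at 50.1 and 26.1 FPKM with −0.91. The highest was CTH, which makes cysteine from cystathionine, at 1.60 and 3.69 FPKM with 0.85. Of the 8 amino acid transporters, 3 were higher and 5 lower, with a median of −0.22, from the neutral amino acid carrier SLC1A4 (3.68 and 1.69 FPKM, log2 ratio −0.80) to the leucine carrier SLC7A5 (431 and 515 FPKM, log2 ratio 0.26). Of 11 other known ATF4 targets kept, 3 were higher and 8 lower, with a median of −0.35. The autophagosome gene MAP1LC3B was lowest, at 7.65 and 2.36 FPKM with a log2 ratio of −1.37, and the autophagy receptor SQSTM1 highest, at 92.9 and 139 FPKM with 0.57.

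m6A peaks were called by the authors in each group separately, from 1 IP against 1 input library. The lists held 31057 distinct peaks in shNC and 27344 in shY2-2. Fold enrichment is the ratio of IP over input in a peak, and over all peaks it had a median of 2.17 for shNC and 2.26 for shY2-2. Of the 10 genes, 8 had a peak in both lists, and DDIT3 and SESN2 had a peak assigned to them in neither. Over all genes kept, 72.7% had a peak in both lists and 13.1% in neither. The 8 genes held 18 peaks in shNC and 21 in shY2-2, an order that turned with the limit: at an FDR (false discovery rate) of at most 0.05 there were 16 in each, and at most 0.001 there were 15 and 11. Of these, 15 (83.3%) and 19 (90.5%) shared at least 1 base of exon on the same strand with a peak of the other list, as did 55.9% and 65.4% of all peaks.

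**Figure D3:**
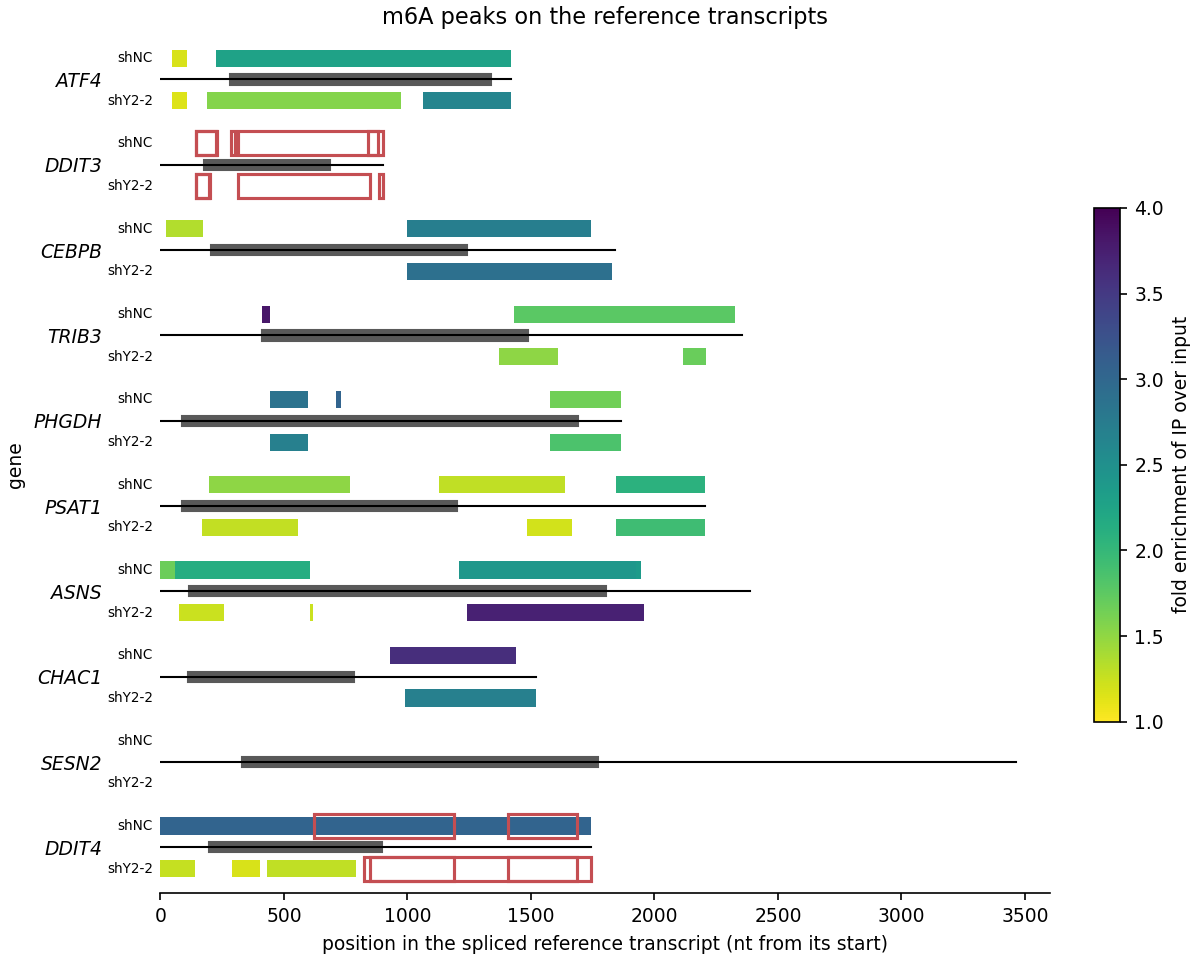
m6A peaks placed on the spliced reference transcript of each gene (x axis, nt from its start; grey box, coding sequence; black line, whole transcript), with the shNC list above and the shY2-2 list below each transcript. Filled bars are peaks assigned to the gene, coloured by fold enrichment, and red outlines are peaks assigned to a gene on the opposite strand. The peaks of ATF4, PSAT1 and CHAC1 each meet a peak of the other list, those of CEBPB, TRIB3, PHGDH and ASNS do so in part, DDIT3 and the 3′ part of DDIT4 in shY2-2 are covered by red outlines only, and SESN2 has no peak.

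Some of the GGAC letters that both lists placed inside peaks are shown here because GGAC is the commonest core of the m6A motif. GGAC was searched on the transcript strand of the GRCh38 reference. The sites of ATF4, CEBPB, PHGDH, PSAT1, ASNS and CHAC1 that lie in peaks of both lists are given 5′ to 3′ on the transcript strand, with GGAC in capitals. TRIB3 and DDIT4 had 3 and 7 such sites, which are not printed. The PHGDH site has G after GGAC and so falls outside the wider m6A consensus, DRACH, while the other printed sites are inside it. Which of them carry the mark was not measured, as a peak spans far more than one site.
ATF4 coding sequence, exon 2, chr22:39521475-39521503: ggtgttggtgggGGACttgatgtccccct
ATF4 coding sequence, exon 3, chr22:39521776-39521804: atgccttctccgGGACagattggatgttg
CEBPB coding sequence, exon 1, chr20:50191822-50191850: caagaagaccgtGGACaagcacagcgacg
CEBPB 3′ UTR, exon 1, chr20:50192426-50192454: cgtgtgtacacgGGACtgacgcaacccac
PHGDH coding sequence, exon 4, chr1:119726869-119726897: ggcttcgatgaaGGACggcaaatgggagc
PSAT1 coding sequence, exon 4, chr9:78304887-78304915: ccaagaagtttgGGACtataaatatcgtt
PSAT1 3′ UTR, exon 9, chr9:78329377-78329405: aaacttgcctgtGGACttaataatgcaag
ASNS 3′ UTR, exon 13, chr7:97852192-97852220: cgtgttggatggGGACtgtgggtagatag
CHAC1 3′ UTR, exon 3, chr15:40956006-40956034: agggcctgccctGGACacaggggccctgc
CHAC1 3′ UTR, exon 3, chr15:40956238-40956266: ggagccctgtaaGGACtgaggccccggcc
CHAC1 3′ UTR, exon 3, chr15:40956304-40956332: gagctgatgcctGGACacagctgctgagc

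ATF4 was covered by peaks over most of its length, 88.5% of the 1419 nt reference transcript in shNC and 84.6% in shY2-2. In shNC, 1 peak ran from transcript position 224 to the end at 1419, with a fold enrichment of 2.27, and included all 1056 nt of coding sequence. In shY2-2 the same stretch held 2 peaks, positions 191 to 972 with a fold enrichment of 1.56 and positions 1062 to 1419 with 2.64. A short 60 nt peak in exon 1, within the 5′ UTR that carries the upstream reading frames, was called at the same bases in both lists, with fold enrichments of 1.18 and 1.16. Both GGAC sites of the transcript lay in peaks of both lists.

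In CEBPB, which has 1 exon, a peak from the end of the coding sequence into the 3′ UTR had a fold enrichment of 2.73 over 742 nt in shNC and 2.90 over 830 nt in shY2-2. A second peak in its 5′ UTR, 150 nt with a fold enrichment of 1.34 and an FDR of 0.00813, was in the shNC list only. TRIB3 had a 896 nt peak over its stop codon and 3′ UTR in shNC, with a fold enrichment of 1.77. In shY2-2 the same region held peaks of 240 and 91 nt, with fold enrichments of 1.51 and 1.68, and the second of these had an FDR of 0.181. The share of the TRIB3 transcript in peaks was 39.5% in shNC and 14.0% in shY2-2, at input levels of 13.0 and 8.56 FPKM. The part of the lower input level in this difference was not tested. A 60 nt peak at its start codon, with a fold enrichment of 3.82 and an FDR of 0.157, was in the shNC list only.

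PSAT1 had 3 peaks in each list at matching places, with lower fold enrichment in shY2-2 at each: 1.51 and 1.27 in the coding sequence, 1.29 and 1.20 in the first part of the 3′ UTR, and 2.08 and 1.93 at the 3′ end. The log2 ratios of these enrichments were −0.25, −0.10 and −0.11. Over the 12294 peaks that met exactly 1 peak of the other list in both directions, the median of this ratio was −0.06 and the 5th and 95th percentiles were −1.04 and 0.92. The last peak covered the same 361 nt in both lists. The share of the transcript in peaks was 65.4% and 42.2%, at input levels of 132 and 55.7 FPKM. The part of the lower input level in this difference was not tested.

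PHGDH had matching peaks in exons 4 to 5, with fold enrichments of 2.86 and 2.70, and at its stop codon in exon 12, with 1.65 and 1.85. Of the 360 nt of the first, 206 nt lay outside the reference transcript in both lists. The remaining peak of each list met none in the other, and its FDR was 0.160 in shNC and 0.281 in shY2-2. ASNS had peaks that overlapped each other within a list, so that 4 peaks in shNC mark 2 regions and 5 in shY2-2 mark 3. Around its stop codon the fold enrichment was 2.41 and 2.36 in shNC and 3.72 and 3.54 in shY2-2, while toward its 5′ end it was 1.67 and 2.14 in shNC and 1.23 and 1.24 in shY2-2, with FDRs of 0.156 and 0.129 for the latter. The shNC peak with 1.67 ran to position 97908825, past the end of ASNS at 97872542 and within AC079781.5. Which of these genes its reads came from was not tested. CHAC1 had 1 peak in each list, both in the 3′ UTR in exon 3, with a fold enrichment of 3.61 in shNC and 2.70 in shY2-2 and 449 nt in common. The log2 ratio of these 2 enrichments was −0.42, within the 5th and 95th percentiles of the 12294 matched peaks, −1.04 and 0.92. The stop codon peaks of ASNS each met more than 1 peak of the other list, so they are not among those matched peaks.

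**Figure D4:**
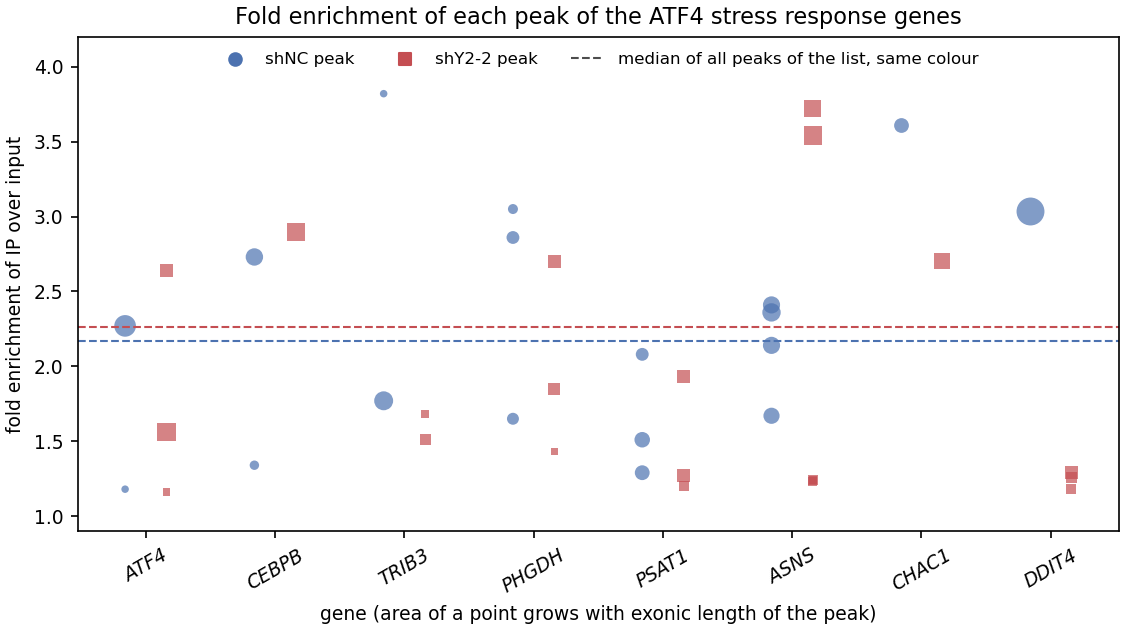
Fold enrichment of IP over input (y axis) for each peak assigned to the 8 genes with peaks, shNC as circles and shY2-2 as squares, with area growing with exonic length. Dashed lines are the medians of all peaks, 2.17 in shNC and 2.26 in shY2-2. Every PSAT1 peak lies below the line in both lists, the DDIT4 and TRIB3 peaks of shY2-2 lie below it, and the 2 stop codon peaks of ASNS lie higher in shY2-2 than in shNC.

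DDIT4 differed most between the lists in the peaks assigned to it, but less in the bases that peaks of any gene covered. In shNC, 1 peak with a fold enrichment of 3.04 spanned all 1744 nt of the reference transcript. In shY2-2, 3 peaks with fold enrichments of 1.26, 1.18 and 1.29 covered 35.1% of it, none of them past transcript position 790, and held none of its 3′ UTR. Peaks assigned to DDIT4-AS1, a gene on the opposite strand with under 0.1 FPKM in both libraries, lay over the last exon of DDIT4 in both lists. Their fold enrichments were 3.76 in shNC and 2.73 and 3.71 in shY2-2. With peaks of either strand counted, all 1744 nt of the DDIT4 transcript were in a peak in shNC and 87.7% of them in shY2-2. Of its 11 GGAC sites, 4 lay in a DDIT4 peak in shNC only, and the 3 in the 3′ UTR lay in a DDIT4-AS1 peak in shY2-2. These 4 sites are printed because the 2 lists differ there, with GGAC in capitals.
DDIT4 coding sequence, exon 2, chr10:72274219-72274247, in no peak of shY2-2: gcctagcctttgGGACcgcttctcgtcgt
DDIT4 3′ UTR, exon 3, chr10:72275260-72275288: gcaggagctgagGGACtgattcctgtggt
DDIT4 3′ UTR, exon 3, chr10:72275368-72275396: gctgtgcattggGGACacatacccctcag
DDIT4 3′ UTR, exon 3, chr10:72275629-72275657: actggtctgaagGGACcaagtgtgtttgt

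DDIT3 is covered in the same way. It had no peak of its own, but peaks assigned to MARS on the opposite strand covered 76.5% of its 903 nt reference transcript in shNC and 67.7% in shY2-2. The one that shared most with the DDIT3 exons had a fold enrichment of 4.10 in shNC, with 564 nt shared, and 3.89 in shY2-2, with 534 nt shared. Whether the precipitated fragments came from DDIT3, from MARS or from both was not tested. SESN2 had no peak of any gene over its 3462 nt transcript, which holds 16 GGAC sites.

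By position, 14 of the 18 peaks in shNC and 14 of the 21 in shY2-2 held coding sequence of the reference transcript. In each list 10 held 3′ UTR, a peak counting in each region it touched. The counts depended on the rule. By the midpoint of each peak, 10 in shNC and 11 in shY2-2 lay in coding sequence, and 6 and 7 in 3′ UTR. By the authors' single location per peak, 1 and 4 were exon, and 10 and 11 were 3′ UTR. By the same location, all 31057 peaks of shNC were 4812 in 5′ UTR, 7888 in exon and 18357 in 3′ UTR. In shY2-2 they were 4359, 6721 and 16264 of 27344. Within 100 nt of the stop codon lay 8 of 18 and 6 of 21 peaks of the genes, and within 100 nt of the start codon 6 in each list. These counts include overlapping ASNS peaks, and the same windows were not counted for all peaks. GGAC was found in 12 of 18 (66.7%) and 14 of 21 (66.7%) of the peaks, as in 61.0% and 60.6% of all peaks. Per kb of peak there were 3.32 and 3.70 GGAC sites, and 4.10 and 3.95 over all peaks. DDIT3 and SESN2, the genes without a peak of their own, were lower in shY2-2, as were 5 of the 8 genes with peaks in both lists. DDIT3 was covered by peaks assigned to MARS. A relation between levels and peaks was not tested.

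The promoters of the 10 genes were searched as a description of reference sequence only. The motif TGATGNAA, the core of the C/EBP-ATF response element that ATF4 binds with a partner, was looked for on both strands in RefSeq windows (GRCh38.p14) from 250 bases before to 50 after a gene's start. All 10 genes matched, with 16 windows. The motif was found in 2 of the 16, those of ASNS and CHAC1, and in 3.62% of all 35116 windows. TGATGCAA, a stricter form of the same motif, was found in that of CHAC1 and in 0.866% of all windows. The bases around each match follow 5′ to 3′ on the gene's strand, with the motif in capitals. In ASNS it reads on the gene's strand, 68 to 61 bases before the start, and in CHAC1 on the opposite strand, 209 to 202 bases before it.
ASNS promoter, chr7:97872458-97872487: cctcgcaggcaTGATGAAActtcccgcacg
CHAC1 promoter, chr15:40953251-40953280: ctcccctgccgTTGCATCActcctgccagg
ASNS and CHAC1 stood at log2 ratios of −0.50 and −0.56, and the 5 other genes that were lower ranged from −1.23 (PSAT1) to −0.33 (SESN2). A match is a description of letters, not of a bound site, and the absence of one says only that these letters are not in the 300 bases searched. Outside those windows, the 5′ UTR of TRIB3 holds TTGCATCA, which is TGATGCAA read on the opposite strand. It lies just before the GGAC sites at transcript positions 146, 179 and 212. Bases past the windows were not searched for the motif in the other genes.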

How the data were processed

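m6A-seq of A549 cells (shNC and shY2-2) gave 1 input and 1 IP library per group, 4 in all. Reads had been aligned by the authors to GRCh38 (HISAT2), and StringTie run on the input alignments gave the deposited FPKM values. The authors called peaks with exomePeak, 1 IP against 1 input library, and ChIPseeker gave each peak a gene and location. The deposited fold enrichment is a linear ratio of IP over input, and the deposited p-value and the log10 FDR, treated as a score, are also the authors' values. fastp and HOMER are named in the submitters' processing notes. Versions, annotation release, strand settings and the limit for calling peaks are not given in the sources used here, and the largest deposited p-value was 0.049.

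Groups came from the sample labels. Ratios were log2((FPKM shY2-2 + 1)/(FPKM shNC + 1)) over genes that reached 1 FPKM in either input library. FPKM keeps no fragment count and the peak lists no read counts, so depth is unknown here and values carry no interval. Distinct peaks were compared by at least 1 bp of shared exonic sequence on the same strand and placed on the canonical transcripts of GENCODE release 44. Promoters came from RefSeq. Steps were tested on simulated data.

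The 10 genes and the pathway and marker lists were chosen with earlier results of these data known. Named besides the 10 genes are the YTHDF readers, kept genes that overlap them, and from each pathway list the genes past a log2 ratio of 1 in size and the highest and the lowest; PSPH, MTHFD2, HSPA5, the keratin KRT8, the other markers, the pseudogenes, CEBPB-AS1 and DDIT4-AS1 were named for their relation to a result, and PSPH, MTHFD2 and HSPA5 after their values were seen. Alternatives were other pseudocounts, filters, centring, a 1.5-fold limit, stricter FDR and enrichment limits, other overlap and location rules and wider or stricter motifs. Peaks of either strand were added after the data were seen. Computations used Python 3.11.15, NumPy 2.4.6, pandas 2.3.3, pysam 0.24.0 and matplotlib 3.10.9.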

Additional observations from a re-analysis of the deposited data

How the results depend on the processing

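No paired analysis was possible because each group has 1 library of each kind. Of the 30 recomputed log2 ratios of the 10 genes, 24 moved by at most 0.1 and 6 by more: those of DDIT3, PHGDH and CHAC1 were −0.76, −0.80 and −0.71 with a pseudocount of 0.1 FPKM and −0.78, −0.82 and −0.74 with none. Only 1 took the other sign, that of DDIT4 with centring, from a value of 0.00. The median of the 10 genes stayed between −0.57 and −0.50, and PSAT1 was the 1 gene of the 10 below −1 at each pseudocount, while the genes kept that were below −1 or above 1 went from 262 and 121 to 602 and 315 at 0.1 FPKM and to 690 and 352 with none. At a 1.5-fold limit 3 of the 10 genes were lower, and of the 78 pathway genes 8 were lower and 3 higher. Of all genes kept, 8.92% were lower and 5.38% higher at that limit. With a pseudocount of 0.1 FPKM, or none, 1 pathway gene was above 1 and 3 were below −1, and at an FPKM of at least 5 only 1 was below −1.

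Stricter peak limits moved more. The 10 genes kept 16 peaks in each list at an FDR of at most 0.05, and 15 in shNC and 11 in shY2-2 at an FDR of at most 0.001. At a fold enrichment of at least 2, 11 peaks remained in shNC and 6 in shY2-2, the latter in 5 genes, and 5 genes had a peak in both lists, as did 51.9% of all genes kept. At a fold enrichment of at least 4 the peaks, the genes with a peak in either list and the genes with a peak in both were all 0, with 14.1% of all genes kept still in both. Genes with a peak in both lists were 8 at an FDR of at most 0.05, with 51.0% of all genes kept, and 6 at most 0.001, with 35.1%. Both overlap alternatives gave 15 and 19 peaks met. The wider m6A consensus DRACH, which allows other letters at each place but the central AC, was in 94.4% and 85.7% of the genes' peaks and in 95.3% and 95.1% of all peaks. TGATGCAA was in 1 promoter window. Counting peaks of either strand moved DDIT3 and DDIT4 only.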

Other observations

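The unfolded protein response has branches beside the ATF4 branch, driven by ATF6 and XBP1. Of 13 genes known to be induced through these factors, or encoding their sensors, 4 were higher and 9 lower in shY2-2, with a median log2 ratio of −0.16, and none was past 1 in size. SEL1L, a subunit of the machinery that removes misfolded proteins from the endoplasmic reticulum, was lowest, at 14.7 and 8.35 FPKM with a log2 ratio of −0.75. The co-chaperone SDF2L1 was highest, at 10.4 and 14.3 FPKM with 0.42. HSPA5 (BiP), the main chaperone of the compartment, stood at 263 and 218 FPKM with −0.27.

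NUPR1, TXNIP and FGF21, also on the pathway lists, were under 1 FPKM in both libraries and were not among the genes kept. FGF21 is listed at 0 FPKM in shNC and at 0.0585 FPKM in shY2-2.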
